A study of Mus musculus with 2 samples.

Results

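Collagens are the protein family that builds the fibrils, sheets and filaments between cells, and 44 genes of the family were read in total RNA of newborn mouse lung. Members were the protein-coding genes in both gene tables whose symbol in the GENCODE annotation has the form of a collagen alpha chain, Col followed by a type number, an a and a chain number. They are 44 of the 43346 mouse genes in the tables. By class, 11 are fibrillar, 6 are chains of type IV, 6 are chains of type VI, 9 are fibril-associated collagens with interrupted triple helices (FACIT), 4 are transmembrane and 8 belong to other types.

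Every collagen chain carries a repeat in which each triplet of residues begins with glycine, and 3 such chains wind into a triple helix inside the endoplasmic reticulum. Fibrillar collagens form the tension-bearing cables of connective tissue, type IV forms the net of basement membranes, and type VI forms microfilaments that link cells to the matrix around them. In lung the fibrillar and type VI genes are known chiefly as products of mesenchymal cells, and type IV underlies both the alveolar epithelium and the capillary endothelium.

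The study holds a single group: lung of the mouse strain B6NCrl on postnatal day 0, with no treatment or genetic change given in the labels. One library came from pup 1 (replicate 1) and one from pup 3 (replicate 2), each from 2 lungs of that pup. Both pups carry the same pregnancy number and the same donor identifier in the labels, and their sex was not collected. RNA longer than 200 nucleotides was extracted with Ambion mirVana, 10 ng entered each library, a SMARTer low-input manual is linked as a protocol, and ERCC spike-in RNAs were added. Depth, as the total of deposited expected counts over mouse genes, was 42189536 in pup 1 and 37026165 in pup 3. Values are given for each pup, and each mean ± SD has n = 2, so the SD is the spread between 2 pups. With 2 pups the smallest p of an exact sign-flip test is 0.5, so no p-value is given. The label was checked against lung markers, all 4 of which were detected in both pups: surfactant protein Sftpc stood at 77317 TPM in pup 1 and 68981 TPM in pup 3, Ager of type I alveolar cells at 3328 and 3579 TPM, club-cell Scgb1a1 at 23050 and 23372 TPM, and the ciliated-cell factor Foxj1 at 35.1 and 39.7 TPM. Beside these 4 epithelial markers, those of fibroblasts summed to 805 TPM in pup 1 and 747 TPM in pup 3, of mesothelium to 484 and 533 TPM, and of endothelium to 279 and 293 TPM. Cardiac muscle markers summed to 563 TPM in pup 1 and 646 TPM in pup 3, and skeletal muscle markers to 38.9 and 39.0 TPM. The part of each cell type in the collagen levels was not tested. In whole lung, fewer cells of a type and less RNA per cell cannot be told apart.

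The repeat that defines the family can be read in the coding sequence, and 2 stretches are shown because they contrast the unbroken helix of a fibrillar chain with the interrupted helix of a type IV chain. Both come from GENCODE M21 transcripts on GRCm38. Capitals mark each glycine codon that opens a triplet. The first is codons 164 to 193 of Col3a1 (chromosome 1), where every triplet follows the last without a break. The second is codons 1044 to 1075 of Col4a1 (chromosome 8), where the repeat is interrupted between triplets.
Col3a1: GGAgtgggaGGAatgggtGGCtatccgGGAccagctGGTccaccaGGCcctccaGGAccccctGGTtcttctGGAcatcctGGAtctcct
Col4a1: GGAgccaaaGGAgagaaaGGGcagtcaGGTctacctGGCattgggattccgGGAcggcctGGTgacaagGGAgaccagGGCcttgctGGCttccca

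A run was counted where at least 5 triplets followed each other with glycine first (a GGN codon opening each group of 3 codons in the reading frame). All 44 members held a run of at least 20 triplets, against 19 of the other genes among 21119 with a complete coding model. The longest run was 344 triplets in Col3a1, and 9 of the 11 fibrillar genes had one of 337 to 344 triplets, in 2 or 3 runs per gene. Col24a1 and Col27a1 were the fibrillar exceptions, with longest runs of 216 and 217 triplets. The 6 type IV genes had 22 to 27 runs each, the longest between 39 and 66 triplets, and the runs held 74.9% to 78.8% of their codons. Type VI genes had 3 to 5 runs that held 11.7% to 31.9% of the codons, so most of each type VI chain lies outside the helix. FACIT genes spread widest, from 8.12% of codons in Col12a1 to 85.6% in Col9a3.

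**Figure D1:**
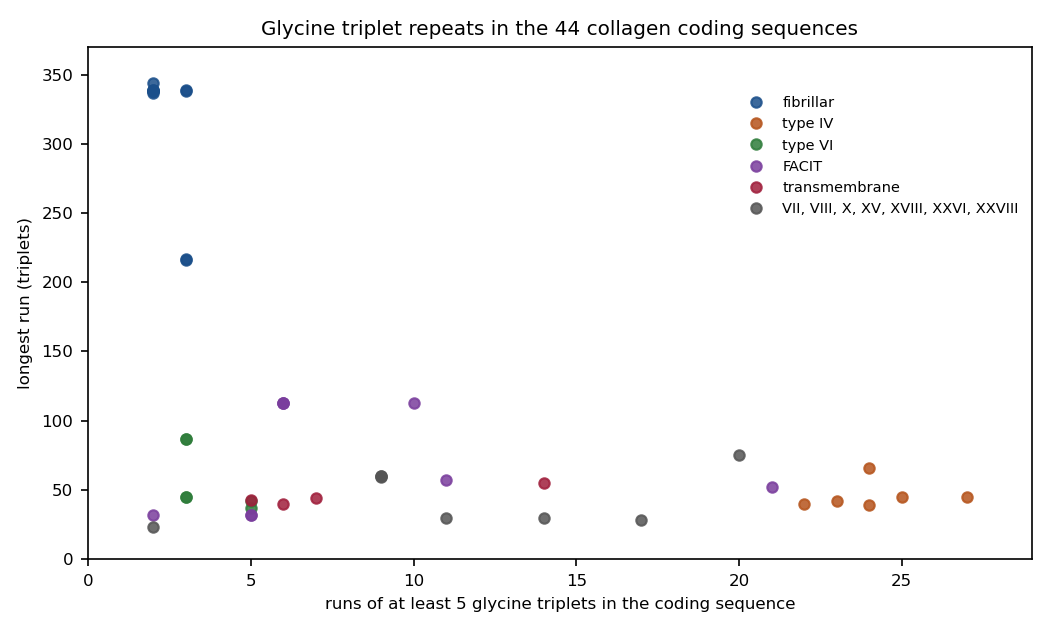
Longest uninterrupted run of glycine triplets (y axis, triplets) against the number of runs of at least 5 triplets (x axis) in the coding sequence of each of the 44 collagen genes, 1 point per gene, coloured by class. Fibrillar genes sit at 2 or 3 runs with the longest at 216 to 344 triplets, and type IV genes at 22 to 27 runs with the longest at 39 to 66.

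The family summed to 2796 TPM in pup 1 and 2785 TPM in pup 3, which was 0.279 ± 0.000720% of all TPM (SD, n = 2). TPM (transcript abundance scaled to a fixed total) is a level per transcript length, and it is the scale of every level below unless counts are named. Collagen transcripts are long, and the same genes took 1.08 ± 0.0252% of the expected counts, 461849 in pup 1 and 392140 in pup 3. In all, 28 members reached a TPM of at least 1 in both pups, here called detected, which is 63.6% of the family beside 60.3% of all 21474 protein-coding genes. The median of the detected members was 27.7 TPM, beside 15.7 TPM over all detected protein-coding genes. With undetected genes included, the median was 3.80 TPM over the 44 members, beside 4.05 TPM over all 21474 protein-coding genes. No member ranked among the 100 highest protein-coding genes, 5 ranked among the 500 highest and 7 among the 1000 highest. Those 7 were Col3a1, Col1a1, Col6a1, Col1a2, Col4a1, Col6a2 and Col4a2, and they held 82.3% of the family's TPM in pup 1 and 80.6% in pup 3.

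Fibrillar genes made up 49.5 ± 0.929% of the family's TPM, with 1366 TPM in pup 1 and 1398 TPM in pup 3. Type IV stood at 628 TPM in pup 1 against 631 TPM in pup 3, and type VI at 636 and 575 TPM. The order of type IV and type VI turned between the pups, so these classes were not separated by level. Transmembrane genes followed with 72.0 TPM in pup 1 and 80.6 TPM in pup 3, then FACIT genes with 53.0 and 60.2 TPM, and the other types with 41.5 and 41.2 TPM. The FACIT sum depended most on how length was counted: with counts divided by the length of the longest protein-coding transcript of each gene, a check added after the data were seen, it was 32.6 ± 3.01 TPM in place of 56.6 ± 5.13 TPM. On that scale it stood close to the other types, which then summed to 30.6 ± 0.478 TPM. The longest protein-coding transcript held under 50% of the abundance on average in 11 of the 28 detected members, which limits this scale. One was Col18a1, with 74.2% of the other types' mean TPM. Its longest such transcript (6338 bases) held 3.47% in pup 1 and 4.12% in pup 3, against 76.5% and 74.7% for a 5063-base one.

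**Figure D2:**
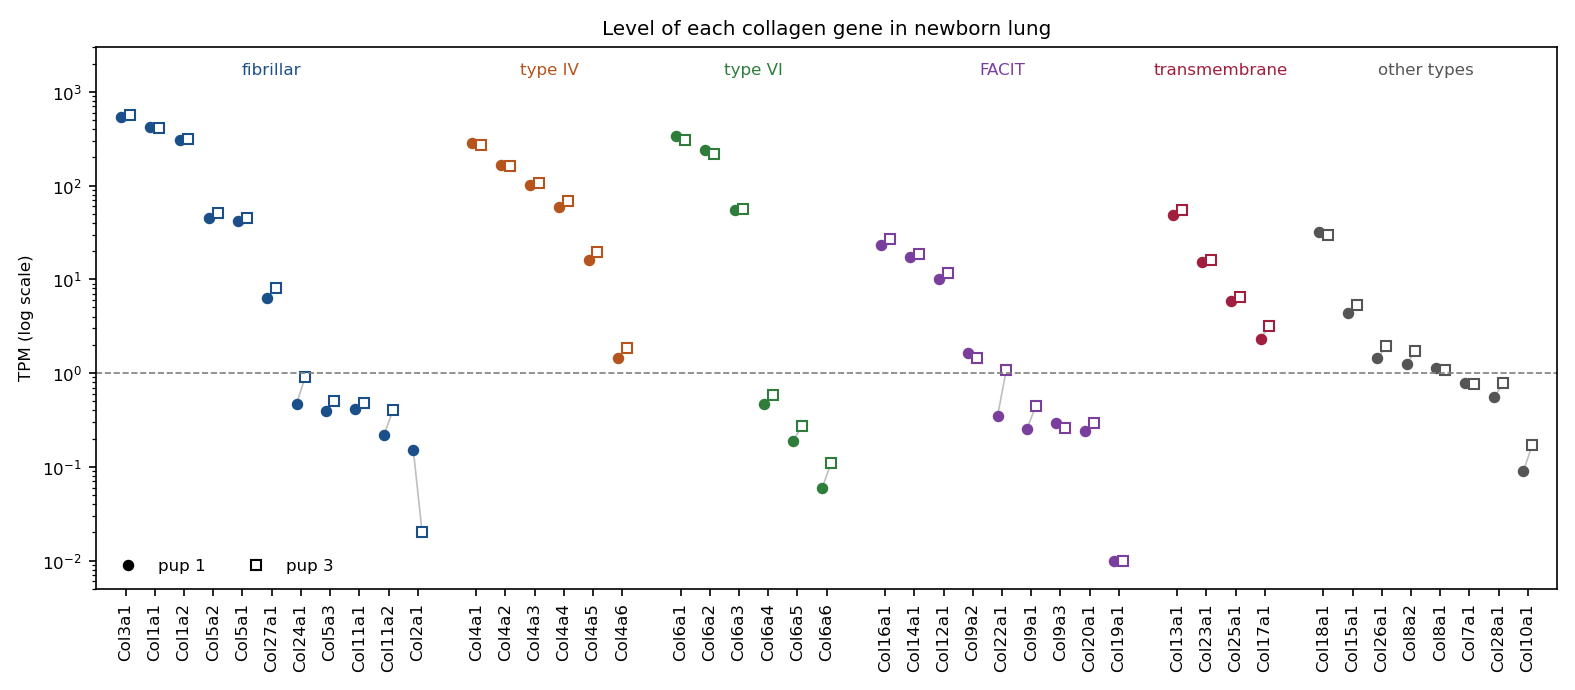
TPM of each of the 44 collagen genes on a log axis, grouped by class and ordered by mean within it, with a filled circle for pup 1 and an open square for pup 3 to its right. The dashed line marks a TPM of 1. Col3a1, Col1a1 and Col1a2 stand highest among fibrillar genes, all 6 type IV genes lie above the line, and Col2a1 and Col19a1 lie lowest.

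Col3a1, whose chain forms the type III collagen of distensible tissues, was the most abundant member, at 542 TPM in pup 1 and 567 TPM in pup 3 (chr1:45311538-45349706 on GRCm38, plus strand). Type I collagen, the stiff cable of connective tissue, is built from Col1a1 and Col1a2. Col1a1 stood at 421 TPM in pup 1 and 410 TPM in pup 3, and Col1a2 at 307 and 315 TPM. These 3 genes alone held 45.4% of the family's TPM in pup 1 and 46.4% in pup 3. Type V chains, which enter type I fibrils and set their diameter, were lower by a wide margin. Col5a2 had 45.6 TPM in pup 1 and 50.9 TPM in pup 3, and Col5a1 had 42.0 and 44.8 TPM. Col27a1, a fibrillar gene best known from cartilage, was the last detected one, with 6.39 TPM in pup 1 and 8.10 TPM in pup 3. Its level was 4.24 ± 0.763 TPM per length of its longest protein-coding transcript.

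The other 5 fibrillar genes were below a TPM of 1 in both pups. Col24a1 had 64 counts in pup 1 against 84 in pup 3 (0.47 and 0.91 TPM), Col5a3, the remaining type V chain, 76 and 82 counts (0.39 and 0.50 TPM), Col11a1 91 and 71 counts (0.41 and 0.48 TPM), and Col11a2 32 and 27 counts (0.22 and 0.40 TPM). Col2a1, the main collagen of cartilage, had 13 counts in pup 1 against 2 in pup 3 (0.15 and 0.02 TPM). It was thus near the limit of detection in both libraries. Of 9 cartilage markers 3 were detected, and their sum was 20.8 TPM in pup 1 and 19.5 TPM in pup 3, nearly all from Sox9, Hapln1 and Cytl1. Among the matrix genes of that list, Hapln1 had 6.98 TPM in pup 1 and 6.17 TPM in pup 3, and Matn3 had 0.30 and 0.46 TPM. Matn1 had no count in either pup, Comp had 7 counts in each, and Acan had 16 counts in pup 1 and 1 in pup 3. The 3 bone markers summed to 0.44 TPM in pup 1 and 1.06 TPM in pup 3.

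All 6 type IV genes were detected. They lie as 3 head-to-head pairs, the genes of a pair running away from each other, and the order of the 6 levels was the same in both pups. Col4a1 and Col4a2, which form the net found in nearly every basement membrane, had the highest levels. Col4a1 (chr8:11198423-11312826, minus strand) stood at 285 TPM in pup 1 and 272 TPM in pup 3, and Col4a2 (chr8:11312805-11449287, plus strand) at 166 and 162 TPM. Col4a3, Col4a4 and Col4a5 form the net of specialised basement membranes such as those of the glomerulus and the alveolus. Col4a3 had 100.45 TPM in pup 1 and 106 TPM in pup 3, Col4a4 had 58.7 and 69.0 TPM, and Col4a5 had 16.0 and 19.5 TPM. Col4a4 was 33.9 TPM in pup 1 and 38.2 TPM in pup 3 per length of its longest protein-coding transcript. The 3 genes together were 175 TPM in pup 1 and 195 TPM in pup 3, beside 451 and 434 TPM for Col4a1 and Col4a2. Col4a6, known with Col4a5 from smooth muscle basement membranes, was lowest with 1.45 TPM in pup 1 and 1.87 TPM in pup 3. The 3 smooth muscle markers were detected and summed to 335 TPM in pup 1 and 295 TPM in pup 3. Most of this was Acta2, with 287 TPM in pup 1 and 252 TPM in pup 3. Cnn1 had 35.9 and 24.4 TPM and Myh11 12.8 and 17.8 TPM. The part of smooth muscle in the Col4a6 level was not tested.

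In type VI, Col6a1, Col6a2 and Col6a3, the classic chains of the beaded microfilament, were detected. Col6a1 (chr10:76708792-76726168, minus strand) had 341 TPM in pup 1 and 304 TPM in pup 3. Col6a2, which lies 85161 bases from it on the same strand, had 239 and 214 TPM, and Col6a3 on chromosome 1 had 55.0 and 55.6 TPM. The Col6a3 level rests on how its transcripts are read. Per length of its longest protein-coding transcript it was 19.0 TPM in pup 1 and 19.7 TPM in pup 3, and a short intron-retaining model held most of its deposited TPM. The later-described chains Col6a4, Col6a5 and Col6a6, neighbours on chromosome 9, were not detected, with 0.47 and 0.59, 0.19 and 0.27, and 0.06 and 0.11 TPM in pup 1 and pup 3.

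FACIT collagens sit on the surface of fibrils. Col16a1 had 23.0 TPM in pup 1 and 26.6 TPM in pup 3, Col14a1 had 17.2 and 18.5 TPM, and Col12a1 had 10.1 and 11.7 TPM. Per length of the longest protein-coding transcript Col16a1 was at 13.4 ± 1.78 TPM and Col12a1 at 4.06 ± 0.359 TPM. The cartilage FACIT type IX was present at low level in Col9a2, with 1.65 TPM in pup 1 and 1.43 TPM in pup 3. Col9a1 (26 and 37 counts) and Col9a3 (26 and 18 counts) were not detected. Col22a1, known from tissue junctions such as that of muscle and tendon, had 0.35 TPM in pup 1 and 1.09 TPM in pup 3. Its counts were nearer each other, 58 in pup 1 and 75 in pup 3, and a 659-base model took 33.3% of its abundance in pup 1 and 70.5% in pup 3. Col20a1 had 23 and 16 counts and Col19a1 1 count in each pup, which is under the limit of 3 counts.

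All 4 transmembrane collagens were detected. Col13a1, an adhesion protein of the cell surface, led with 48.6 TPM in pup 1 and 55.0 TPM in pup 3. On deposited TPM this placed it level with Col5a2 and Col6a3 in the whole family. Per length of the longest protein-coding transcript Col13a1 was at 44.8 ± 4.91 TPM, near Col5a2 at 47.5 ± 3.69 TPM but above Col6a3 at 19.4 ± 0.519 TPM. Col23a1 had 15.1 TPM in pup 1 and 16.1 TPM in pup 3, and Col25a1, known from motor innervation of muscle, 5.91 and 6.40 TPM. Col17a1, the hemidesmosome collagen of basal epithelial cells, had 2.32 TPM in pup 1 and 3.19 TPM in pup 3. Col7a1, which makes the anchoring fibrils beneath such cells, was just below detection at 0.79 and 0.76 TPM. Of 4 markers of stratified and basal epithelium, 2 (Krt10 and Krt14) were detected, the sum was 7.32 TPM in pup 1 and 7.36 TPM in pup 3, and Krt5 had 0.03 and 0.10 TPM. Their part in the Col17a1 and Col7a1 levels was not tested.

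Among the other types, Col18a1, a heparan sulfate proteoglycan of basement membranes and the source of endostatin, had 31.9 TPM in pup 1 and 29.4 TPM in pup 3. Its close relative Col15a1 had 4.37 and 5.32 TPM, or 2.61 and 3.01 TPM per length of its longest protein-coding transcript. Col26a1 had 1.43 TPM in pup 1 and 1.94 TPM in pup 3, and the short-chain network genes Col8a2 and Col8a1 had 1.24 and 1.71, and 1.13 and 1.08 TPM. Col28a1, known from peripheral nerve, had 0.55 TPM in pup 1 and 0.78 TPM in pup 3; the 3 glial markers summed to 1.36 and 2.37 TPM, and their part in it was not tested. Col10a1, the collagen of hypertrophic cartilage, had 9 counts in pup 1 against 14 in pup 3. It lies within Nt5dc1, which runs on the opposite strand with 800 counts in pup 1 and 758 in pup 3. Whether counting used the strand is not given in the sources used here, so the Col10a1 counts and those of Col18a1, which overlaps Slc19a1 (454 and 409 counts), are uncertain to that extent. Of the 16 undetected members together, the sum was 4.93 TPM in pup 1 and 7.08 TPM in pup 3, or 0.176% and 0.254% of the family.

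Of the 27 neighbouring pairs in the order of the detected members by mean TPM, 18 were separated by more than the larger of their SDs. The order itself turned between the pups for 5 pairs: Col6a1 and Col1a2, Col14a1 and Col4a5, Col26a1 and Col4a6, Col4a6 and Col9a2, and Col9a2 and Col8a2. A further 4 pairs lay closer than their SD without turning: Col6a3 and Col13a1, Col13a1 and Col5a2, Col4a5 and Col23a1, and Col27a1 and Col25a1. Col3a1 and Col1a1 at the head, and Col4a1, Col6a2, Col4a2, Col4a3, Col4a4 and Col6a3 after Col1a2, stood in the same order in both pups.

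Chains of the same collagen type, and a few pairs of related chains from different types or molecules, were compared as the log2 ratio of their TPM within each library. The 2 neighbouring type VI genes had the steadiest ratio of the 13 pairs examined. Col6a1 was 1.42-fold above Col6a2 in pup 1 and 1.42-fold in pup 3 (log2 0.51 ± 0.00434). Col4a1 was 1.72-fold above Col4a2 in pup 1 and 1.68-fold in pup 3 (log2 0.76 ± 0.02), and Col1a1 was 1.37-fold and 1.30-fold above Col1a2 (log2 0.42 ± 0.05). For these 3 pairs the direction was the same on every scale tried. Per length of the longest protein-coding transcript Col6a1 over Col6a2 was at log2 0.74. For Col6a2 that transcript, Col6a2-202 (4653 bases), held only 3.70% of the abundance in pup 1 and 3.25% in pup 3. Col6a2-201 (3949 bases) held 95.9% and 96.3%. Col5a1 and Col5a2 were nearly level, at 0.921 in pup 1 and 0.881 in pup 3, and the direction turned with counts that were not divided by length. Col3a1 was 1.29-fold above Col1a1 in pup 1 and 1.38-fold in pup 3, but 1.01-fold and 1.09-fold per length of the longest protein-coding transcript. The lead of Col3a1 over Col1a1 thus depended on the transcript length used.

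Within type IV the pairs differed widely in balance. Col4a3 was 1.71-fold above Col4a4 in pup 1 and 1.54-fold in pup 3, and 2.95-fold and 2.76-fold per length of the longest protein-coding transcript. Col4a5 was 11.0-fold above Col4a6 in pup 1 and 10.4-fold in pup 3. Col4a5 stood at a log2 ratio of -4.16 to Col4a1 in pup 1 and -3.80 in pup 3. The ratio of Col6a3 to Col6a1 moved most with the length used, with a log2 mean of -2.54 ± 0.13 on deposited TPM and -4.05 ± 0.15 per length of the longest protein-coding transcript. On either scale the Col6a3 transcript level was below those of Col6a1 and Col6a2 in both pups. Col15a1 was lower than Col18a1 by a log2 ratio of -2.87 in pup 1 and -2.47 in pup 3.

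**Figure D3:**
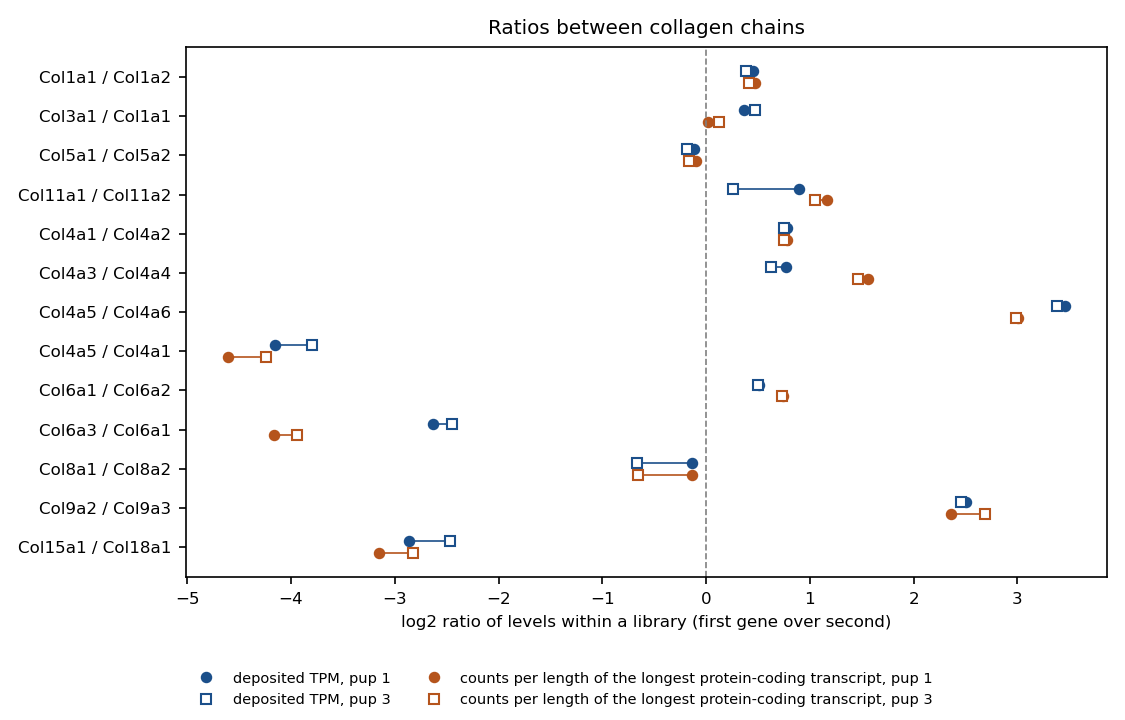
Log2 ratio of the first gene's level over the second's within each library for 13 pairs of collagen chains, from deposited TPM (blue) and from counts per length of the longest protein-coding transcript (orange); filled circles are pup 1 and open squares pup 3. Col1a1 over Col1a2 and Col4a1 over Col4a2 give nearly the same ratio on both scales, while Col6a3 over Col6a1 and Col4a3 over Col4a4 shift.

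The deposited isoform percent divides each gene's abundance among its annotated transcripts. The same transcript led in both pups for 25 of the 28 detected members, and in 24 of these it held over 50% on average and in 14 over 90%. Col1a1-201 held 99.7% in pup 1 and 99.8% in pup 3, and Col4a1-201 held 99.6% and 99.7%. Such members have 1 full-length form to which their level refers. In 5 members, models that are not annotated as protein-coding held over 20% on average: Col6a3 (61.5 ± 1.02%), Col16a1 (58.0 ± 3.05%), Col27a1 (57.4 ± 0.106%), Col4a4 (49.2 ± 1.95%) and Col25a1 (28.7 ± 1.26%). In Col6a3 a single retained-intron model of 646 bases, Col6a3-206, held 61.4% in pup 1 and 59.7% in pup 3, and the 9001-base coding model Col6a3-202 held 33.4% and 34.4%. The longest Col6a3 coding model, Col6a3-201, was listed at 0 in both pups. In Col4a4 the retained-intron model Col4a4-202 of 1263 bases took 47.8% in pup 1 and 50.5% in pup 3, close to equal with the full-length Col4a4-201. In each of these genes the models other than protein-coding held similar shares in the 2 pups.

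Short coding models held much of several other members. Col12a1-204 (1784 bases) held 62.9% in pup 1 and 63.5% in pup 3, while the 11511-base Col12a1-201 held 25.1% and 24.1%. Col15a1-203 (1755 bases) held 59.6% and 64.6%, and Col4a5-204 (3511 bases) 54.6% and 56.2%. In Col3a1, the 737-base Col3a1-205 held 23.6% in pup 1 and 22.8% in pup 3 beside 75.3% and 75.7% for the 5564-base Col3a1-201. Each of these shares was close between the pups. Since TPM divides counts by length, a short model with few reads raises a gene's TPM. Col26a1 was the exception in stability: Col26a1-201 held 96.6% in pup 1 and 0% in pup 3, and Col26a1-202, a model of nearly the same length, 0% and 69.3%, at 118 and 107 counts for the whole gene.

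**Figure D4:**
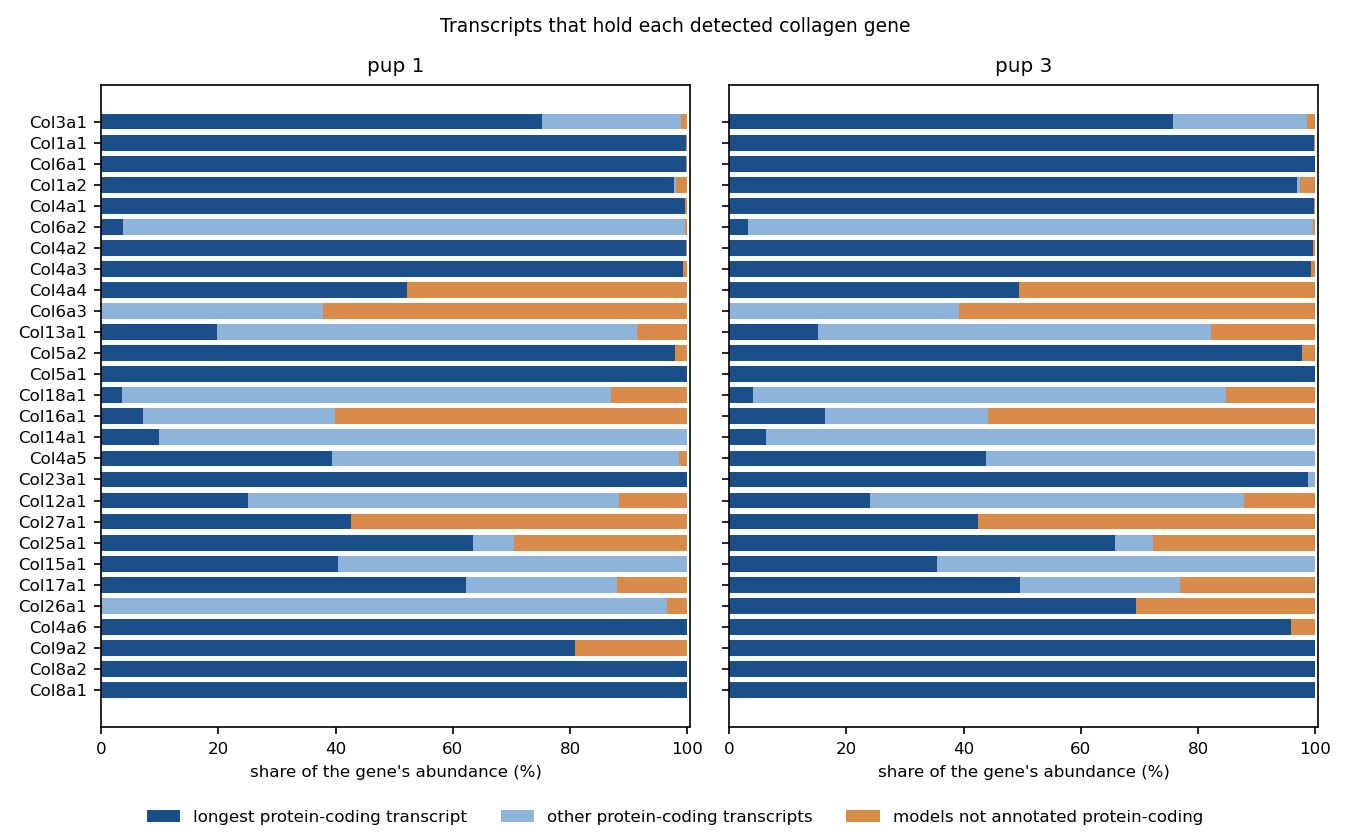
Share of each detected collagen gene's abundance (x axis, percent) held by its longest protein-coding transcript (dark blue), other protein-coding transcripts (light blue) and models not annotated as protein-coding, including any absent from the M21 annotation (orange), in pup 1 (left) and pup 3 (right). Col1a1, Col6a1, Col4a1 and Col4a2 are almost wholly 1 full-length form, while Col6a3, Col16a1 and Col27a1 are over 50% models not annotated as protein-coding.

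The pups were compared, pup 1 over pup 3, by counts scaled with TMM. Genes with 50 or more counts in the pair of libraries were tested. One was said to differ where the ratio reached 2-fold and its 95% interval, from the exact binomial test of the split of its counts, left out 1. This sets 1 library against 1 library, so it has no replicate check and no p-value, and the intervals cover counting error only. Of the 38 members with at least 50 counts, 0 differed by this rule, beside 1.4% of all 15790 genes with as many counts. No member differed at a fold of 1.5 either, where 5.06% of all genes did. The median log2 ratio of the 38 members was -0.04, beside 0.01 over all these genes, and the median size of the ratio in either direction was 0.13, beside 0.14. With scaling to the ERCC spike-ins both medians moved by more than 0.1, to 0.10 for the members and 0.15 for all genes, on a spike-in total of only 317 counts in pup 1 and 316 in pup 3.

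Small differences with narrow intervals did occur at the depth of the abundant members. Col6a1 drew 43920 counts in pup 1 against 33367 in pup 3, a scaled ratio of 1.19 (95% interval 1.17 to 1.20), and Col6a2 drew 29950 and 22817 counts, a ratio of 1.18 (1.16 to 1.21). Both were the highest ratios among the 38 members tested, while Col6a3 was at 1.02 (0.984 to 1.06). For Col18a1 the counts were 4682 in pup 1 against 3654 in pup 3, a ratio of 1.16 (1.11 to 1.21). In the other direction Col27a1 drew 896 counts in pup 1 against 985 in pup 3, a ratio of 0.821 (0.749 to 0.900), and Col4a5 had 2416 and 2541 counts, a ratio of 0.858 (0.811 to 0.908). Col3a1, with 74772 counts in pup 1 and 66808 in pup 3, had a ratio of 1.01 (1.00 to 1.02). In all, the interval lay above 1 for 7 members and below 1 for 10, together 44.7% of the members tested, beside 46.2% of all genes tested. The widest deviation among the members tested was Col9a1, at a log2 ratio of -0.65, whose 26 counts in pup 1 and 37 in pup 3 left an interval of 0.369 to 1.08.

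**Figure D5:**
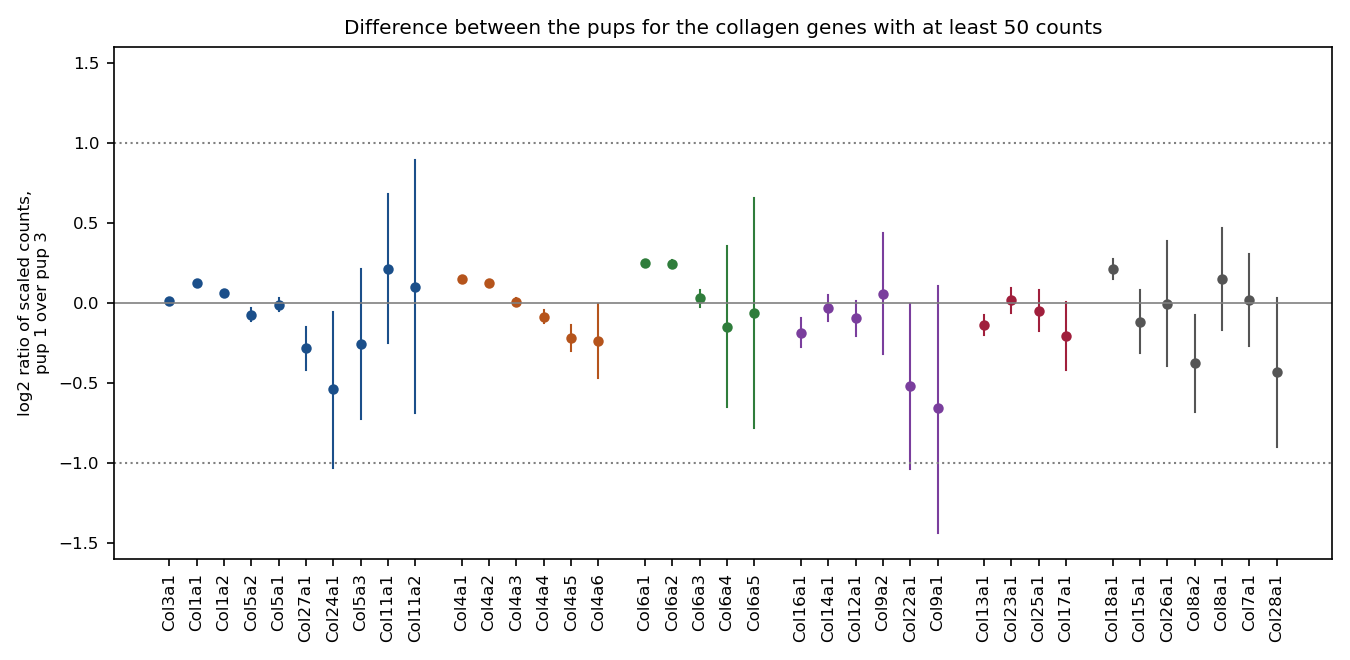
Log2 ratio of scaled counts, pup 1 over pup 3, for the 38 collagen genes with 50 or more counts in the pair of libraries; points are ratios and bars are exact 95% intervals for counting error, coloured by class as in the plot of levels, with dotted lines at 2-fold. All points lie between the dotted lines.

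A call appeared when the minimum of 50 counts was dropped. Col2a1, with 13 counts in pup 1 and 2 in pup 3, then had a ratio of 5.87 (95% interval 1.33 to 53.5), where 2.84% of all genes with at least 1 count were called. Cartilage markers did not all lean the same way. For pup 1 against pup 3, Acan stood at 16 counts against 1 and Snorc at 1 against 0. Matn3 stood at 28 against 37, Cnmd at 5 against 7 and Comp at 7 against 7. Of the 4 cartilage markers with 50 or more counts, Sox9, Hapln1 and Cytl1 leaned to pup 1, at scaled ratios of 1.12, 1.20 and 1.08. Matn3 leaned to pup 3, at 0.683. The log2 ratios of the 4 ranged from -0.54 to 0.26, and 0 differed. The part of cartilage in the Col2a1 ratio was not tested.

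Collagen chains are modified, folded, exported, trimmed and cross-linked by other proteins, which need not serve collagen alone. A list of 54 genes for these proteins and for collagen receptors was read beside the family. In all 49 were detected. Among the prolyl and lysyl hydroxylases and their partners all 12 were detected, with P4hb, the shared subunit of prolyl 4-hydroxylase, at 503 TPM in pup 1 and 498 TPM in pup 3. Crtap, of the prolyl 3-hydroxylase complex, had 74.1 and 75.4 TPM. All 8 chaperones and glycosylation genes were detected. Sparc, a collagen-binding matricellular protein, had 3388 TPM in pup 1 and 3196 TPM in pup 3, above every collagen gene, and Serpinh1, the collagen-specific chaperone HSP47, had 463 and 544 TPM.

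For export, Sec13 of the COPII coat had 156 TPM in pup 1 and 143 TPM in pup 3, and Mia2, a cargo receptor partner for large procollagens, 66.8 and 67.1 TPM. Pcolce, which enhances removal of the C-propeptide, had 75.9 TPM in pup 1 and 87.4 TPM in pup 3, and its relative Pcolce2 had 44.4 and 39.2 TPM. Of the cross-linking enzymes, Loxl1 had 107 TPM in pup 1 and 106 TPM in pup 3 and Tgm2 had 85.4 and 85.8 TPM. Of the receptors, Itgb1, the beta subunit common to the collagen-binding integrins, had 303 TPM in pup 1 and 327 TPM in pup 3, and Ddr1, a receptor tyrosine kinase for collagen, 55.8 and 68.9 TPM. The genes below a TPM of 1 in both pups were Tll2, Loxl4, Itga10, Itga11 and Gp6. Of the 52 tested, 1 was higher in pup 1 and 0 in pup 3, beside 0.659% and 0.741% of all genes tested. It was Itga11, the integrin subunit of fibroblasts that binds type I collagen, with 45 counts in pup 1 and 20 in pup 3 (log2 ratio 1.00), and it no longer passed when counts were scaled by their totals.

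Collagen genes are known targets of the miR-29 family, which binds their 3′ untranslated regions. The mature sequences are shown because their shared seed sets the site searched for. They come from RefSeq on GRCm38.p6 (miR-29a on chromosome 6, miR-29b and miR-29c on chromosome 1), with bases 2 to 8 in capitals.
mmu-miR-29a-3p: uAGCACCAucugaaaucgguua
mmu-miR-29b-3p: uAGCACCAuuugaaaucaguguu
mmu-miR-29c-3p: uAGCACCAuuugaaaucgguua

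The match to the seed, TGGTGCT, was read on the transcript strand in the 3′ untranslated region of each gene with at least 30 annotated bases there. It was found in 24 of 42 members, against 12.0% of 20002 genes, and at least 2 matches were found in 11 members, against 1.87% of genes. The median length of the region was 965 bases in the members and 826.5 bases over all genes. By class the match was present in 9 of 10 fibrillar genes, all 6 type IV genes and 2 of 6 type VI genes. The counts were 3 of 9 for FACIT genes, 0 of 4 for transmembrane genes and 4 of 7 for the other types. The model read was not always the one that led. For Col25a1 it was Col25a1-201, with 30 bases in the region and 6.71% of the abundance on average. The models read for Col14a1, Col19a1 and Col9a3, without a match, and for Col2a1, with 1, were listed at 0% in both pups. Of the 7 most abundant members, Col6a1 and Col1a2 had none. Sites in 4 abundant members follow, with the seed match in capitals and the base after it, which is an A in each, as it is in 18 of the 43 sites found in members.
Col3a1: ttcaaaatgtctcaaTGGTGCTa
Col1a1: gtgggaaggaatttcTGGTGCTa
Col4a1: gccaccgtcacaacaTGGTGCTa
Col6a2: tctccatcccatctgTGGTGCTa

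A match is a description of the letters and not evidence of binding. Mature miRNAs are shorter than the RNA kept for these libraries, so miR-29 was not measured.

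Promoters of a pair of members that share a start region are shown because their genes had different levels. RefSeq promoter windows of 300 bases (250 before the start and 50 after, GRCm38.p6) were matched by symbol to 35 of the 44 members, with 38 windows. Each was searched on both strands for the TATA box letters TATAAA, for CCAAT, and for GGGCGG, the letters of a GC box. Of 68 matches in the member windows, 2 overlapped the match before them. The windows of Col4a1 (chr8:11312777-11313076, minus strand) and Col4a2 (chr8:11312555-11312854, plus strand) overlap by 78 bases, and the annotated genes themselves overlap by 22. Capitals mark matches to CCAAT or to the letters GGGCGG, or their reverse complements.
Col4a1: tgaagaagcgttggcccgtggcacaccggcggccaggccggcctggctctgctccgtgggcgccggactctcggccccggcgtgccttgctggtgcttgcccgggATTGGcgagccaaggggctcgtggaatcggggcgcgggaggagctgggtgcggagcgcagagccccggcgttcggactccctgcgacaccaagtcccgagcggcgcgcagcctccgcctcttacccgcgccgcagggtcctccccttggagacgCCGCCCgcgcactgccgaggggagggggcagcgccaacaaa
Col4a2: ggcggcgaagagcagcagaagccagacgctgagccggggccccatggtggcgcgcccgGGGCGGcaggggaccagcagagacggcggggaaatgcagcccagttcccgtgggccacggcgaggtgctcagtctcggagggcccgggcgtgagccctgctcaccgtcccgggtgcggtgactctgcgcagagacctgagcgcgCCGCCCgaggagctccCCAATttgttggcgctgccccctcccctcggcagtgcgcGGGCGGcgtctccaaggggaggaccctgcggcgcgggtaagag

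The Col3a1 window (chr1:45311288-45311587, plus strand) is shown as the contrast, since it holds TATAAA, in capitals, 117 bases before the start and no CpG.
Col3a1: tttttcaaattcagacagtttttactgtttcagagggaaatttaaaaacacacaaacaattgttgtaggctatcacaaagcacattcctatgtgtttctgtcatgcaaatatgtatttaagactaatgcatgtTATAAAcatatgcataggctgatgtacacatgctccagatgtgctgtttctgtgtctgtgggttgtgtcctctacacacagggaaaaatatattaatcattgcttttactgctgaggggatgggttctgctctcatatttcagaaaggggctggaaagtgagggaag

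Col4a1 held 37 CpG and 74.0% GC in its window and Col4a2 held 33 CpG and 73.7% GC, against 0 CpG and 37.7% GC in Col3a1. All 3 genes are among the most abundant members. Over the 38 member windows TATAAA was present in 13.2%, against 13.6% of 32851 RefSeq windows, and CCAAT in 34.2%, against 37.4%. GGGCGG was present in 60.5% of member windows, against 35.7% of all windows. The members' windows also held more GC, with a median of 59.8% against 52.7%, and a median of 11.5 CpG against 7. The second type IV pair, Col4a4 and Col4a3, starts 71 bases apart on chromosome 1, inside the Col4a4 window, and the third, Col4a6 and Col4a5, starts 1308 bases apart on chromosome X. The pair closest together had a mean ratio of 1.70-fold (Col4a1 over Col4a2) the next 1.62-fold (Col4a3 over Col4a4) and the pair farthest apart 10.7-fold (Col4a5 over Col4a6), over 3 pairs only. Per length of the longest protein-coding transcript the ratio of Col4a3 over Col4a4 was 2.85-fold, above that of Col4a1 over Col4a2 at 1.70-fold. On that scale Col4a5 over Col4a6 was 7.98-fold. A link between distance and ratio was not tested.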

How the data were processed

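Total RNA of lung from 2 newborn pups was sequenced, 1 library per pup, and each library has a deposited gene table and transcript table. Per the deposited notes of each library, quantification used mm10 and GENCODE M4. Which aligner, counting program and strand setting were used is not stated in these sources. The authors deposited expected counts, TPM and FPKM per gene and transcript, and the percent of each gene's abundance held by each transcript, each also as a posterior mean. No raw reads were used.

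The members and all lists were chosen with earlier results of these data known. Gene identifiers were matched without version to GENCODE M21 on GRCm38, which held 42462 of 43346, and 198 of 201 member transcripts. Levels are deposited TPM, given as mean and SD over the pups. Detected means a TPM of at least 1 in both pups. For the pup comparison expected counts were rounded to whole numbers, scaled by TMM (edgeR 4.0.16, R 4.3.3), and a prior count of 0.5 was added for log2 ratios. Exact conditional binomial 95% intervals came from scipy 1.17.1, and the procedure was tested on simulated data. DESeq2 1.42.0 size factors, total counts, spike-in totals, posterior means, FPKM, protein-coding transcripts and leaving out each pup were alternatives. Counts per length of the longest protein-coding transcript were added after seeing the data. They were scaled by a total in which every gene kept its deposited length. Features named only by a number, under 0.001% of counts, and spike-ins stayed out of library totals.

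Every member could be named, with values for each pup where it was detected or had at least 50 counts. Of the maturation genes, the 2 highest by mean TPM in each list were named, together with those that differed between pups and those under a TPM of 1 in both. Overlapping genes and closely related chains may share reads. Intervals cover counting error only.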

Additional observations from a re-analysis of the deposited data

How the results depend on the processing

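No paired analysis was possible because the study has a single group. The number of pups, depth and the transcript models limit these values: members under 50 counts have wide intervals, and the level of a member with short or intron-retaining models depends on the length used. The cause of each shift below was not tested, apart from that construction. Under an alternative, levels, shares and chain ratios were judged by the SD between pups, and a number of genes by a factor of 1.5. A single member's ratio between pups has no such SD and was judged by the width of its counting-error interval. The family's median ratio was judged by its standard error over members. By these unlike rules, 73 of the values that answer a comparison stayed, 45 moved and 3 reversed. Of those of single members, 240 stayed and 88 moved. With either pup left out a value is that of the other pup, which says nothing about stability. The 28 detected members were 30 at a TPM of 0.5, 23 at a TPM of 2, 29 with posterior means, 26 with FPKM and 28 to 29 in a single pup.

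The family's share of TPM, 0.279%, was 0.275% with posterior means, 0.267% with protein-coding transcripts, 0.251% per longest coding transcript and 1.08% as a share of counts. With protein-coding transcripts and per longest coding transcript only the members' values changed and the total did not. Neither is therefore a share of a total on its own scale. With posterior means type IV summed to 618 TPM and the other types to 43.8 TPM. With protein-coding transcripts type IV summed to 595 TPM, FACIT to 40.7 TPM, transmembrane to 67.1 TPM and the other types to 36.6 TPM. Per longest coding transcript, the sums were 1251 TPM for fibrillar, 595 TPM for type IV, 535 TPM for type VI, 32.6 TPM for FACIT, 67.7 TPM for transmembrane and 30.6 TPM for the other types.

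Among chain ratios (log2), 2 reversed with counts not divided by length, Col3a1 over Col1a1 to -0.026 and Col5a1 over Col5a2 to 0.22. Col11a1 over Col11a2 reversed to -0.23 with posterior means. With counts not divided by length, the mean was 0.59 for Col1a1 over Col1a2, 1.45 for Col11a1 over Col11a2, 0.80 for Col4a1 over Col4a2, 1.27 for Col4a3 over Col4a4, 2.97 for Col4a5 over Col4a6, -4.44 for Col4a5 over Col4a1, 0.55 for Col6a1 over Col6a2, -2.73 for Col6a3 over Col6a1 and -3.29 for Col15a1 over Col18a1. Per longest coding transcript it was 0.068 for Col3a1 over Col1a1, 1.10 for Col11a1 over Col11a2, 1.51 for Col4a3 over Col4a4, 2.997 for Col4a5 over Col4a6, -4.42 for Col4a5 over Col4a1, 0.74 for Col6a1 over Col6a2, -4.05 for Col6a3 over Col6a1, 2.52 for Col9a2 over Col9a3 and -2.99 for Col15a1 over Col18a1. With protein-coding transcripts it was 1.16 for Col11a1 over Col11a2, 1.66 for Col4a3 over Col4a4, -3.92 for Col6a3 over Col6a1 and 2.42 for Col9a2 over Col9a3, and with posterior means 1.53 for Col9a2 over Col9a3.

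Between the pups, 1 member differed with a minimum of 1 count (Col2a1), and 0 maturation genes differed with total counts or with TPM + 1. The family's median log2 ratio was -0.080 with total counts, 0.10 with spike-ins and -0.10 with TPM + 1.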

Other observations

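The glycine triplet repeat is not limited to genes with collagen symbols. Of the 19 genes outside the family with a run of at least 20 triplets, 13 were detected in both pups. Sftpd, the surfactant-associated collectin, had a run of 59 triplets and 1418 TPM in pup 1 and 1262 TPM in pup 3, above every collagen gene. Colec12, a scavenger receptor collectin, had 58.8 TPM in pup 1 and 68.8 TPM in pup 3, Emid1 had 59.6 and 56.1 TPM, and C1qb, a chain of complement C1q, had 48.4 and 41.2 TPM. Marco, a macrophage scavenger receptor, had the longest run of the 19, 81 triplets, at 6.91 TPM in pup 1 and 7.81 TPM in pup 3.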
